A study of Homo sapiens with 28 samples.

Results

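ATF4, 4 further stress-response regulators and 4 enzymes of serine, glycine and asparagine synthesis were followed through RNA handling and s4U labelling in HEK293T cells. The genes were taken by identifier, by a rule written with earlier results of these data known. They are ATF4, ATF5, DDIT3, DDIT4, TRIB3, PHGDH, PSAT1, SHMT2 and ASNS, 9 of 24678 genes with an exonic read in the alignment analysed here. Of these, 8 had a row of their own in the count table and all 8 passed the filter on low counts, which left 12449 genes. ASNS had no row of its own: its 10101 exonic reads were assigned jointly to ASNS and another gene, 10099 of them to ASNS and the identifier ENSG00000284707, so every ASNS count below is a count of shared reads and is uncertain.

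ATF4 is a bZIP transcription factor whose mRNA carries upstream open reading frames. When eIF2 is phosphorylated under amino acid shortage or endoplasmic reticulum stress, translation of most mRNAs falls while ATF4 protein is made, and ATF4 then activates genes of amino acid synthesis and uptake together with further regulators such as DDIT3 (CHOP) and TRIB3. HEK293T cells are a widely used human embryonic kidney line that carries the SV40 large T antigen.

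The study used nucleotide-recoding RNA-seq, in which cells take up 4-thiouridine (s4U), a chemical step recodes s4U so that it is read as cytosine, and new RNA shows as reads with T-to-C mismatches. Wild-type HEK293T cells received 100 µM s4U for 2 hours or no s4U, and their RNA was recoded by NaIO4 plus TFEA at pH 5.2, by iodoacetamide, or by OsO4 plus NH3. Each chemistry was run under drop-out handling (DO), the common way of collecting RNA and treating the reads, and under improved handling (IH), meant to keep more s4U-bearing RNA and mismatched reads. In each comparison of counts below, the DO and IH libraries were taken from the same aligner and setting. Each of the 6 combinations had 2 labelled libraries and 1 unlabelled library that went through the same chemistry, 18 libraries in 12 groups, and 10 other samples of the series were not analysed here. The labels name no separate cultures, so the p-values measure the spread between these libraries, which may be technical. An unlabelled group holds 1 library, so the spread used in the count fits comes from the labelled pairs alone. It holds no spread between unlabelled libraries, and each gene has 1 spread for DO and IH together. The p-values of a comparison within IH thus rest in part on the DO pairs, and a fit of the IH libraries alone was not run. The chi-square per degree of freedom of a labelled pair was 4.85 to 8.68 under DO and 2.13 to 2.32 under IH.

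Depth was 1935777 to 9962345 reads per library, of which 836654 to 4604325 were exonic reads of a single gene. Reads with no single gene made up 32.7% to 41.5% of DO libraries and 17.5% to 25.7% of IH libraries. The converted share of exonic reads (those carrying 1 or more T-to-C mismatches) was 10.4% to 17.4% for DO with s4U, 24.7% to 33.2% for IH with s4U, 2.56% to 3.28% for DO without s4U and 2.71% to 3.57% for IH without s4U. Reads with no single gene and the labelled converted share moved with handling, and their part in the results below was not tested. Fewer cells and less RNA per cell cannot be told apart in such bulk libraries, and marker genes of the cell line were not checked.

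The 2 labelled DO libraries of a chemistry differed in a way that the chemistries shared. Over 12449 genes the log2 difference between replicates 1 and 2 correlated at 0.21, 0.25 and 0.21 between pairs of DO chemistries, but at 0.011 to 0.025 between pairs of IH chemistries. The converted share of exonic reads was 15.1% to 17.4% in DO replicates numbered 1 and 10.4% to 12.5% in those numbered 2. In the DO libraries numbered 2, CPM was higher in all 3 chemistries for ATF4, DDIT3, DDIT4, TRIB3, PHGDH, SHMT2 and ASNS and lower for PSAT1. What the number marks is not given in the sources used here, and the results of a fit with the number as a term stand beside those they change.

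In RefSeq on GRCh38.p14 ATF4 (ENSG00000128272) lies at chr22:39520559-39522686, ATF5 (ENSG00000169136) at chr19:49928906-49933935, DDIT3 (ENSG00000175197) at chr12:57516588-57520517, DDIT4 (ENSG00000168209) at chr10:72273924-72276036 and TRIB3 (ENSG00000101255) at chr20:380760-397559. PHGDH (ENSG00000092621) lies at chr1:119711934-119744215, PSAT1 (ENSG00000135069) at chr9:78297125-78330093, SHMT2 (ENSG00000182199) at chr12:57229711-57234935 and ASNS (ENSG00000070669) at chr7:97851677-97928441. ATF4 and DDIT4 are compact genes, spanning 2128 and 2113 bases, whereas PHGDH, PSAT1 and ASNS span 32282, 32969 and 76765 bases, much of it intron.

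RefSeq promoters of 300 bases (250 before and 50 after the start) matched 8 of the 9 genes by symbol. The promoters below are those of ASNS, which holds the amino acid response element TGATGAAAC, of ATF4 and DDIT4, the genes with the largest converted shares among the 5 with enough reads for the share fit below, and of PSAT1, which rose under IH where ATF4 fell. Capitals mark TGATGAAAC in ASNS, TATAA in ATF4, the reverse complement of CCAAT in DDIT4, and CCAAT in PSAT1.
ASNS (chr7:97872359-97872658, minus strand): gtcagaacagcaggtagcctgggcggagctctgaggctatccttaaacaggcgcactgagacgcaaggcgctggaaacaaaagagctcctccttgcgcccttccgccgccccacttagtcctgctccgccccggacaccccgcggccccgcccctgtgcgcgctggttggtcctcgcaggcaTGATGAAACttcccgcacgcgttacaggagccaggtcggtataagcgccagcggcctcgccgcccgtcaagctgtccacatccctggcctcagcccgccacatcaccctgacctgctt
ATF4 (chr22:39520309-39520608, plus strand): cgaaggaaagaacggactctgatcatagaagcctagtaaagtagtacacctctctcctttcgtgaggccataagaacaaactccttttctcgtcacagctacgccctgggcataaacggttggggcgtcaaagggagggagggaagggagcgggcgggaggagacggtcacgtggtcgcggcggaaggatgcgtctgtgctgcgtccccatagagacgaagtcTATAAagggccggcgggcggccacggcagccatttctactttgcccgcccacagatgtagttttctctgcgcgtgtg
DDIT4 (chr10:72273674-72273973, plus strand): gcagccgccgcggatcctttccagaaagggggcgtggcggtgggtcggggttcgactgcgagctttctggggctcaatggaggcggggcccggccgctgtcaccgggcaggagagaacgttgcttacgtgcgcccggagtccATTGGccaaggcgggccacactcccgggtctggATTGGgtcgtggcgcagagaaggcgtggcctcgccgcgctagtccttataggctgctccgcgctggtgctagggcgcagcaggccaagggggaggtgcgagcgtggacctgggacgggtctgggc
PSAT1 (chr9:78296875-78297174, plus strand): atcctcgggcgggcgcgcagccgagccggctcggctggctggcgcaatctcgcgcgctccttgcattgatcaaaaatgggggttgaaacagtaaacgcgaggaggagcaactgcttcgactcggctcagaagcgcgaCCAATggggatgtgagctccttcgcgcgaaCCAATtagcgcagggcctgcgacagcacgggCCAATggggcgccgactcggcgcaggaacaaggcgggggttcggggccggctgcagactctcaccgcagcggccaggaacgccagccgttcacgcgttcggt

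Both strands were searched for 4 motifs, none of which contains another. TGATGAAAC, 68 bases before the ASNS start, was found in 1 of the 8 genes and in 0.225% of 35116 promoters of that length. TGATGNAAT, a general form of the element bound by ATF4 with C/EBP partners, was in 0 of the 8 genes and in 0.991% of promoters. CCAAT, bound by NF-Y, was in 4 of the 8 genes (DDIT4, DDIT3, PHGDH and PSAT1) and in 34.6% of promoters, with 3 copies in PSAT1, 113, 83 and 52 bases before its start. TATAA was in 4 of the 8 (ATF4, DDIT4, ASNS and PHGDH) and in 20.4% of promoters. A match is a description of the letters and not a measured binding site.

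The first question was how handling changed the exonic level of these genes. Under IH, 6 of the 8 genes with their own rows were lower and 2 were higher in labelled libraries (edgeR's quasi-likelihood test, Benjamini-Hochberg adjusted p under 0.05). Over all genes tested 80.6% passed this test, 46.7% higher and 33.9% lower. The median log2 change of the 8 genes was -1.20, that of all genes 0.44. ATF4, ATF5, PHGDH and SHMT2 fell by 2.79-fold to 4.37-fold, while DDIT3 and PSAT1 rose by 3.73-fold and 2.55-fold. Levels are given as CPM, counts scaled to a common library size by TMM, and groups of 6 libraries by their lowest, median and highest value. The fold sizes depend on this scaling. With total exonic counts instead, the log2 changes were -0.91 for ATF4, -1.33 for SHMT2, -1.52 for PHGDH and -1.57 for ATF5. DDIT3 was then at 2.46 and PSAT1 at 1.90, with the median of all genes at 0.995.

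ATF4 stood at 1119, 1535 and 1901 CPM in labelled DO libraries and at 453, 540 and 670 CPM in labelled IH libraries. Every IH library lay below every DO library, as in 25.3% of genes tested. Its log2 change was -1.48 (SE 0.13, adjusted p = 5.37e-10 by edgeR). Without s4U, ATF4 was at 1282, 1044 and 1011 CPM under DO (NaIO4 and TFEA, iodoacetamide, OsO4 and NH3, in that order here and below) and at 576, 390 and 452 CPM under IH, which the fit put at -1.25 on the log2 scale (SE 0.18, edgeR adjusted p = 2.36e-06). The 3 unlabelled IH libraries likewise lay below the 3 unlabelled DO libraries, as in 33.2% of genes.

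ATF5, a bZIP relative of ATF4 that is also controlled by upstream open reading frames, was thinly covered, with 7 to 47 exonic reads per library. It stood at 15.6, 22.3 and 23.7 CPM in labelled DO and at 3.19, 4.80 and 7.52 CPM in labelled IH libraries. The groups did not overlap, and the log2 change was -2.13 (SE 0.31, edgeR adjusted p = 1.42e-06). In unlabelled libraries the log2 change was -1.19 (SE 0.40, edgeR adjusted p = 0.0107). That call was lost when the unlabelled DO or IH library of NaIO4 and TFEA, or the unlabelled IH library of OsO4 and NH3, was left out (log2 -1.05 to -1.08, adjusted p 0.0531 to 0.0703), and with total-count scaling (-0.75, adjusted p = 0.0933). Of ATF5's exonic reads, 13.6% were shared with the identifier ENSG00000283842 and are not in these counts.

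DDIT3 encodes CHOP, a C/EBP-family factor of prolonged endoplasmic reticulum stress. In labelled DO libraries it was the thinnest of the 9 genes, with 1 to 23 exonic reads. It stood at 1.01, 7.71 and 11.7 CPM in labelled DO and at 19.7, 23.3 and 44.5 CPM in labelled IH libraries. Every labelled IH library lay above every labelled DO library, as in 34.7% of genes tested, and the log2 change was 1.90 (SE 0.34, edgeR adjusted p = 2.73e-05). Leaving out labelled DO replicate 2 of NaIO4 and TFEA raised it to 2.60.

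Without s4U, DDIT3 was at 13.9, 19.2 and 16.3 CPM under DO and at 33.8, 33.1 and 21.9 CPM under IH. These groups did not overlap either, but the log2 change of 0.83 (SE 0.41) missed the threshold (edgeR adjusted p = 0.0717). With the 13.1% of its exonic reads that were shared with ENSG00000285133 added, the value was 0.88 and the call was made (adjusted p = 0.0334). Scaling by total counts also gave the call, at 1.27 (adjusted p = 0.00979).

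DDIT4 (REDD1), an inhibitor of mTORC1 signalling, changed least among the genes called. It stood at 90.8, 146 and 198 CPM in labelled DO and at 84.6, 106 and 124 CPM in labelled IH libraries. The groups overlapped, and the log2 change was -0.49 (SE 0.15, edgeR adjusted p = 0.00641). Its direction turned to 0.08 when libraries were scaled by total exonic counts, a scaling that moved the median of all genes from 0.44 to 0.995. Relative to that median DDIT4 was at -0.93 with TMM and -0.92 with total counts. Without s4U the DDIT4 levels were 250, 238 and 218 CPM under DO and 130, 104 and 159 CPM under IH. These groups did not overlap, and the fit gave -0.86 (SE 0.21, edgeR adjusted p = 0.00104), which total counts reduced to -0.42 (adjusted p = 0.0571).

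TRIB3 is a pseudokinase induced by ATF4 and DDIT3 that dampens their activity. It stood at 45.4, 68.5 and 90.6 CPM in labelled DO and at 32.4, 36.5 and 40.3 CPM in labelled IH libraries. All labelled IH values lay below the DO values, and the log2 change was -0.92 (SE 0.18, edgeR adjusted p = 6.43e-05), lost with total-count scaling (-0.35, adjusted p = 0.0626) and with intronic reads alone (-0.78, adjusted p = 0.0754). Unlabelled libraries held 111, 117 and 129 CPM under DO and 51.6, 55.7 and 67.4 CPM under IH, which the fit put at -1.04 (SE 0.23, edgeR adjusted p = 3.90e-04) and which was also lost with intronic reads alone (-0.96, adjusted p = 0.0896).

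PHGDH, PSAT1 and SHMT2 are enzymes of the route to serine and glycine. PHGDH oxidises 3-phosphoglycerate, PSAT1 transaminates the product to phosphoserine, and, once PSPH has removed the phosphate, SHMT2 converts serine to glycine in mitochondria. The 3 genes did not move the same way with handling. PHGDH was at 2679, 3631 and 4729 CPM in labelled DO and at 779, 787 and 1070 CPM in labelled IH libraries. No library of one group reached the other, and the log2 change was -2.09 (SE 0.13, edgeR adjusted p = 2.94e-12). SHMT2 was at 918, 1068 and 1310 CPM and at 276, 298 and 321 CPM in the same groups. The SHMT2 libraries were also fully separate, and the fitted change was -1.89 (SE 0.12, edgeR adjusted p = 6.70e-12).

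PSAT1 ran the other way, at 82.1, 93.4 and 111 CPM in labelled DO and 216, 240 and 275 CPM in labelled IH libraries. Every IH library was above every DO library, and the log2 change was 1.35 (SE 0.13, edgeR adjusted p = 3.11e-09). In unlabelled libraries PHGDH changed by -2.08 (SE 0.18, adjusted p = 2.92e-09), SHMT2 by -1.78 (SE 0.17, adjusted p = 1.09e-08) and PSAT1 by 0.78 (SE 0.18, adjusted p = 4.90e-04; edgeR). PSAT1 without s4U stood at 141, 129 and 144 CPM under DO and at 212, 257 and 241 CPM under IH, with every IH library above every DO library, as in 43.4% of genes. Relative to the median change of all genes, PSAT1 was at 0.91 with s4U and 0.35 without.

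ASNS makes asparagine from aspartate and glutamine. Its shared reads stood at 160, 253 and 340 CPM in labelled DO and at 322, 366 and 409 CPM in labelled IH libraries, with an overlap at 340 and 322 CPM. Added to the fit as a gene, they changed by 0.54 on the log2 scale with s4U (SE 0.16, edgeR adjusted p = 0.00364) and by 0.69 without s4U (SE 0.22, adjusted p = 0.00822). This addition was chosen after seeing the data.

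Among unlabelled libraries as a whole, 72.1% of genes passed the test, 41.4% higher and 30.7% lower under IH. Of the 8 genes, 6 were lower (ATF4, ATF5, DDIT4, TRIB3, PHGDH and SHMT2), 1 was higher (PSAT1) and DDIT3 was not called. Their median log2 change was -1.11, against 0.43 over all genes. Relative to the median of all genes DDIT3 was at 0.40, PSAT1 at 0.35 and the 6 lower genes at -1.29 to -2.50.

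**Figure D1:**
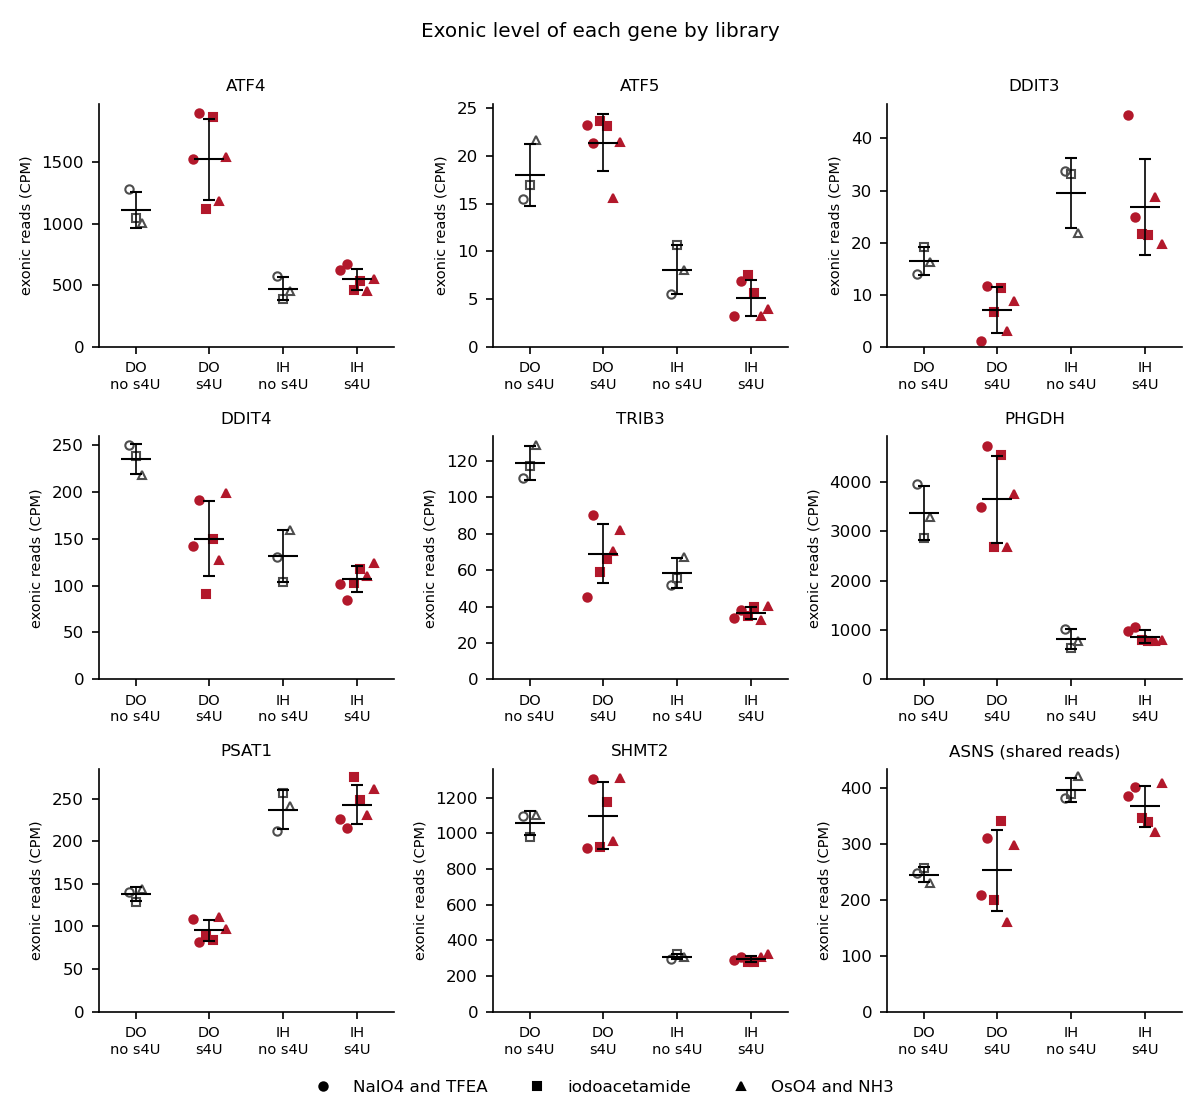
Exonic level (CPM, linear axes from 0) of each gene in 18 libraries by handling (DO, IH) and label, with 1 point per library, its shape giving the chemistry, open without s4U and filled with s4U; horizontal bars are means and error bars SD. ATF4, ATF5, PHGDH and SHMT2 lie lower under IH with and without s4U, while PSAT1 lies higher (216 to 275 CPM against 82.1 to 111 CPM with s4U).

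The second question, which follows from the study's interest in the loss of s4U-bearing RNA, was whether labelled and unlabelled libraries of one handling differed. None of the 8 genes passed the test under DO or under IH, both judged against the spread that DO and IH share in the fit. Few genes did at all: 27 under DO (0.217%, of which 0.12% higher and 0.0964% lower with s4U) and 28 under IH (0.225%, of which 0.177% higher and 0.0482% lower), by edgeR with adjusted p under 0.05. With 1 library left out the DO count ranged from 9, without the unlabelled DO library of iodoacetamide, to 208, without labelled DO replicate 1 of iodoacetamide. The split of the DO calls moved with the scaling: 55.6% were higher with s4U under TMM, 77.8% with DESeq2's size factors and 27.7% with total counts. At an unadjusted p under 0.05, 5 of the 8 genes differed under DO, where 10.9% of all genes did, and 1 under IH, where 7.37% did.

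The outcome turned on how the replicate number was treated. With the number as a term that the chemistries of a handling shared, an alternative added after seeing the data, 457 genes (3.67%) passed under DO and 329 (2.64%) under IH. Under DO the genes then called by edgeR were ATF4 (0.44, adjusted p = 7.42e-05), DDIT4 (-0.69, adjusted p = 4.83e-05), TRIB3 (-0.81, adjusted p = 5.34e-04), PSAT1 (-0.53, adjusted p = 0.00804) and DDIT3 (-1.47, adjusted p = 0.0213). Under IH TRIB3 alone of the 8 was called (-0.67, edgeR adjusted p = 0.00644). The unlabelled libraries carry no number, so that term removes spread from the labelled libraries only.

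DDIT4 had its 3 unlabelled DO libraries (218 to 250 CPM) above all 6 labelled ones (90.8 to 198 CPM), an order seen in 2.51% of genes tested. The fitted log2 difference was -0.65 (SE 0.18, edgeR adjusted p = 0.156) under DO and -0.28 (SE 0.18, adjusted p = 0.802) under IH. TRIB3 had its unlabelled libraries above all labelled ones under both handlings, 111 to 129 CPM against 45.4 to 90.6 CPM under DO and 51.6 to 67.4 CPM against 32.4 to 40.3 CPM under IH, where 5.82% of genes had that order. Its log2 differences were -0.78 (SE 0.20, edgeR adjusted p = 0.106) and -0.66 (SE 0.20, adjusted p = 0.296).

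Both genes gained calls with HISAT2 under the setting coded D and TRIB3 also with STAR, but neither gained one with HISAT2 VL. HISAT2 D called 90 genes under DO, 21 higher and 69 lower with s4U, and 102 under IH, 49 higher and 53 lower. Another aligner can lose converted reads, and the part of such a loss in these calls was not tested. With HISAT2 under the setting coded D, DDIT4 under DO was at -1.11 (edgeR adjusted p = 0.00787) and TRIB3 at -0.94 under both DO (adjusted p = 0.00799) and IH (adjusted p = 0.0101). With STAR, TRIB3 under DO was at -0.86 (edgeR adjusted p = 0.0421). In the main alignment, TRIB3 under DO was at -0.85 without labelled DO replicate 2 of NaIO4 and TFEA.

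ATF4 had the opposite sign. The labelled DO libraries ranged over 1119 to 1901 CPM and the unlabelled ones over 1011 to 1282 CPM, with a log2 difference of 0.46 (SE 0.15, edgeR adjusted p = 0.270). It was also called without labelled DO replicate 1 of iodoacetamide (0.68, adjusted p = 0.00219) and without the filter on low counts (0.55, adjusted p = 0.0288). Under IH the ATF4 difference was 0.22 (SE 0.15, adjusted p = 0.818).

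PSAT1 was at 129 to 144 CPM without and 82.1 to 111 CPM with s4U under DO, again without overlap (2.51% of genes), a log2 difference of -0.53 (SE 0.16, edgeR adjusted p = 0.207). Under IH its groups overlapped, with a difference of 0.04 (SE 0.15, adjusted p = 0.983). DDIT3 was at -1.20 (SE 0.46, adjusted p = 0.339) under DO and at -0.14 (SE 0.30, adjusted p = 0.961) under IH. Its DO value ranged from -1.93 to -0.81 with 1 library left out. PHGDH and SHMT2, whose groups overlapped under both handlings, differed by at most 0.12 on the log2 scale (SE 0.14 to 0.15).

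The difference between the 2 handlings in the effect of s4U was tested as an interaction. By edgeR 0 genes passed (0.0%), with 914 at an unadjusted p under 0.05, while DESeq2 called 3 and the fit with the shared replicate term 108. Among the 8 genes PSAT1 had the smallest p, at a log2 interaction of 0.57 (SE 0.22, unadjusted p = 0.0161, adjusted p = 0.615). DDIT3 was at 1.07 (SE 0.55, adjusted p = 0.690) and ATF5 at -0.94 (SE 0.50, adjusted p = 0.699). None of the 8 was called with the shared replicate term either.

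**Figure D2:**
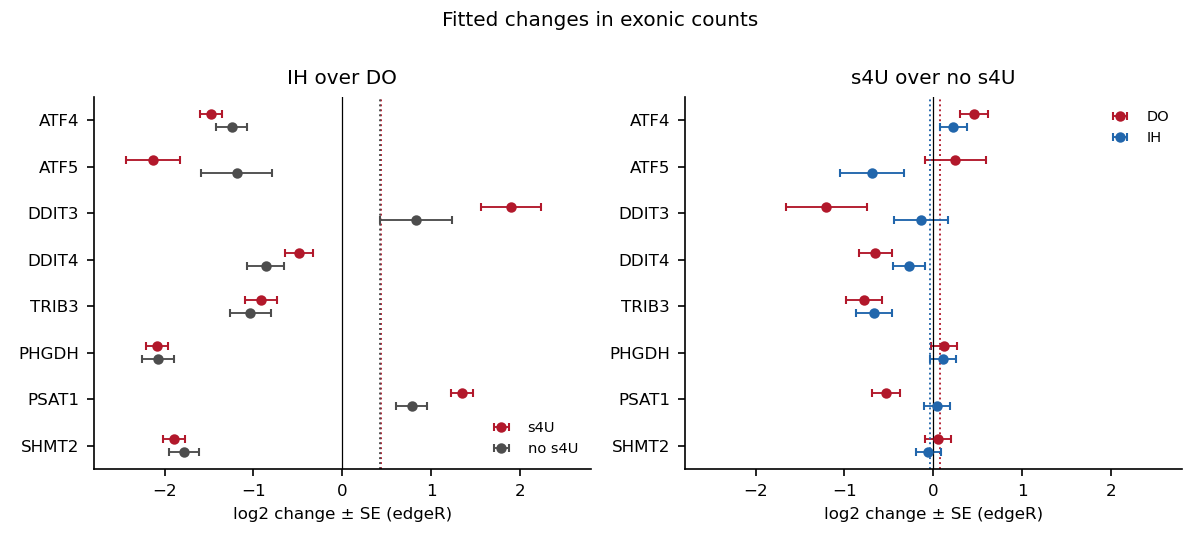
Fitted log2 changes with their SE from edgeR for the 8 genes with rows of their own: IH over DO (left; red with s4U, grey without) and s4U over no s4U (right; red under DO, blue under IH), with dotted lines at the median of all genes tested. The handling changes reach from -2.13 for ATF5 to 1.90 for DDIT3, whereas none of the s4U differences passed the threshold in the fit shown, which has no term for the replicate number.

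The converted share of each gene's exonic reads was then compared between handlings in labelled libraries. A fit of converted against unconverted reads took the genes whose exonic reads numbered 50 or more in all labelled libraries. Of 1992 such genes 81.9% had a higher share under IH and 0 a lower one (edgeR, adjusted p under 0.05). ATF4, DDIT4, PHGDH and SHMT2 were called higher and PSAT1 was not. Their log2 odds ratios had a median of 1.17 against 1.09 over all genes.

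ATF4's converted share was 19.1%, 22.8% and 27.9% in labelled DO and 40.9%, 47.3% and 52.7% in labelled IH libraries. The groups did not overlap, as in 43.5% of genes, and the log2 odds ratio was 1.501 (SE 0.18, edgeR adjusted p = 3.13e-11). Without s4U the share was 3.08% to 5.51%. ATF4's mean share exceeded that of 86.4% of genes under DO and of 93.9% under IH.

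DDIT4 had the highest converted shares of the 9 genes in IH libraries: 63.9%, 80.2% and 87.2% in labelled DO and 78.7%, 86.5% and 91.3% in labelled IH libraries. It ranked above 99.9% of genes under either handling, while its unlabelled share was at most 4.27%. The labelled groups overlapped, and the log2 odds ratio was 0.88 (SE 0.32, edgeR adjusted p = 0.0109). This call was lost without labelled DO replicate 2 of NaIO4 and TFEA (0.51, adjusted p = 0.1499), labelled IH replicate 1 of NaIO4 and TFEA (0.75, adjusted p = 0.0578) or labelled DO replicate 2 of iodoacetamide (0.61, adjusted p = 0.107), and when 2 mismatches were required (0.43, adjusted p = 0.332).

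PHGDH was at 6.31%, 7.36% and 11.0% in labelled DO and 13.5%, 16.2% and 19.4% in labelled IH libraries, a log2 odds ratio of 1.17 (SE 0.17, edgeR adjusted p = 9.65e-09). SHMT2 was at 8.22%, 8.75% and 13.4% and at 17.3%, 20.9% and 26.7%, a log2 odds ratio of 1.38 (SE 0.20, adjusted p = 7.96e-09). Neither gene's groups overlapped. Their unlabelled shares were 2.78% to 5.79% for PHGDH and 4.14% to 6.78% for SHMT2, and the lowest labelled DO library of each gene lay above its highest unlabelled one.

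PSAT1 was at 12.04%, 17.1% and 22.1% in labelled DO and 17.1%, 19.5% and 25.4% in labelled IH libraries. These ranges overlapped, and the log2 odds ratio of 0.32 (SE 0.26) did not pass (edgeR adjusted p = 0.249). With intronic reads included it was 1.26 and passed. PSAT1's unlabelled share was 0.943% to 1.75% under DO and 2.59% to 5.84% under IH.

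TRIB3, ATF5 and DDIT3 had too few reads for that fit, as did ASNS for want of a row, and were compared by an exact two-sided permutation test within chemistries, whose smallest p is 0.00926. That test permutes each chemistry on its own and does not keep the replicate difference that the DO chemistries shared. TRIB3 was at 33.3%, 45.0% and 61.5% in labelled DO and 37.8%, 61.1% and 66.3% in labelled IH libraries, 11.7 percentage points higher under IH (exact permutation p = 0.0185). Of the 1992 genes of the share fit 78.3% were higher by this test. Without labelled DO replicate 1 of iodoacetamide the difference was 10.9 points and missed the threshold, and in a fit that admitted genes with 20 reads its log2 odds ratio was 0.71 (edgeR adjusted p = 0.0817).

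ASNS shared reads were at 4.91%, 8.33% and 16.4% in labelled DO and 18.2%, 19.9% and 22.7% in labelled IH libraries, without overlap, 10.6 points higher (exact permutation p = 0.00926). ATF5 was at 5.00%, 23.4% and 40.0% and at 20%, 38.1% and 62.5%, 17.2 points higher with a wide overlap (exact permutation p = 0.0556). With 1 library left out the ATF5 difference ranged from 10.2 to 24.3 points. It passed without labelled IH replicate 2 of NaIO4 and TFEA (24.3 points, exact permutation p = 0.0370) and without labelled DO replicate 1 of iodoacetamide (21.0 points, exact permutation p = 0.00926). DDIT3 spanned 33.3% to 100% in labelled DO libraries, where a share could rest on 1 read, and 50.0% to 75.6% in labelled IH libraries, a difference of -2.17 points (exact permutation p = 0.898). With at least 2 mismatches required, the DDIT3 difference had the opposite sign, 17.2 points (exact permutation p = 0.0463).

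**Figure D3:**
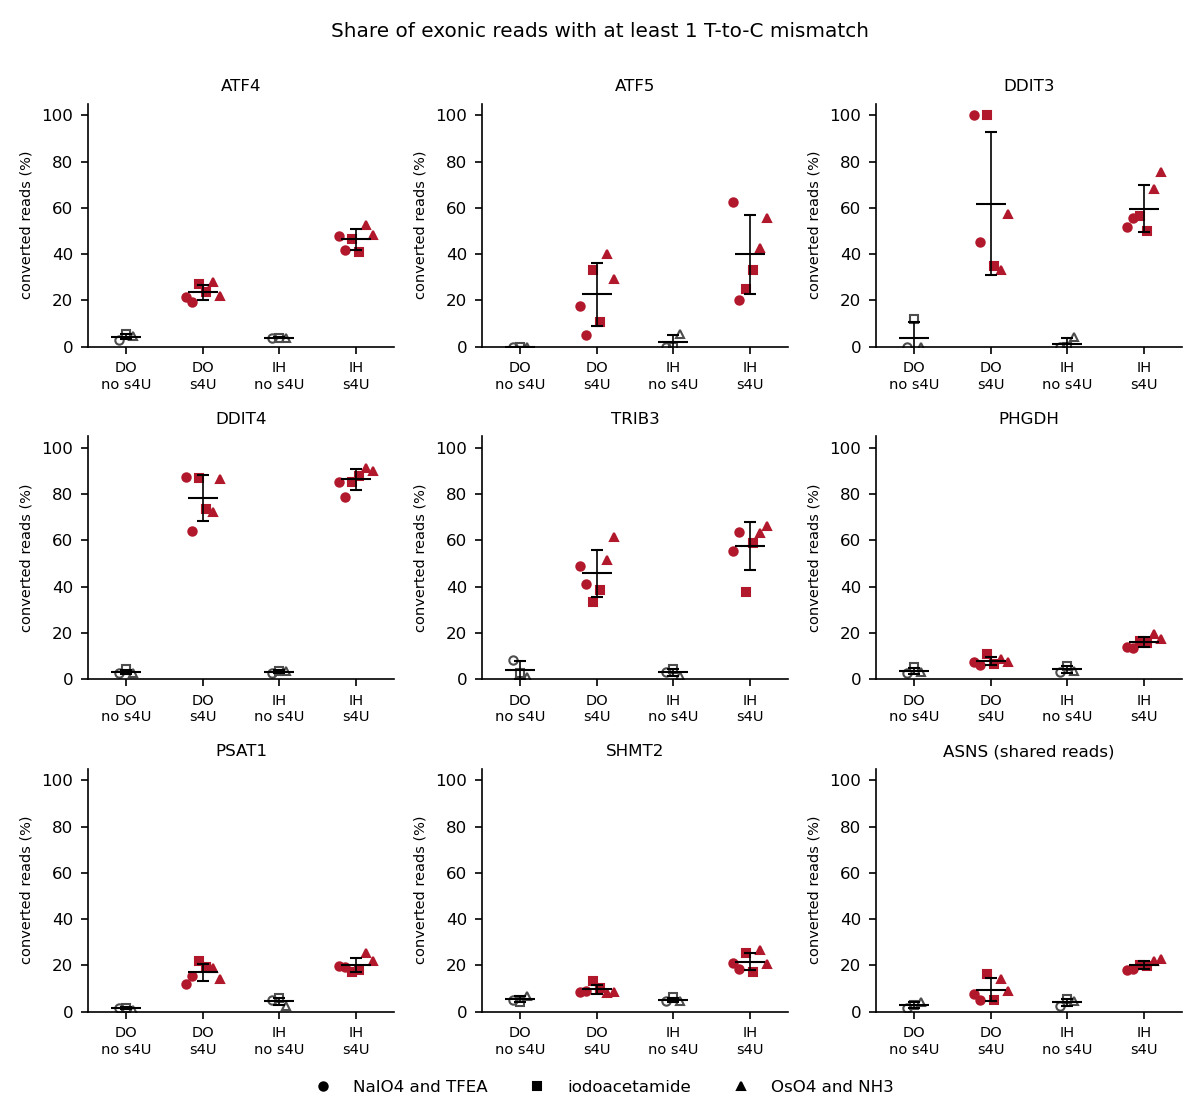
Converted share, the part of exonic reads with T-to-C mismatches (percent, axes from 0) for each gene in 18 libraries, with 1 point per library, its shape giving the chemistry, open without s4U and filled with s4U; bars are means and SD. The labelled IH libraries of ATF4 (40.9% to 52.7%) lie above its labelled DO libraries (19.1% to 27.9%), while DDIT4 is at 63.9% or more in every labelled library and PSAT1's labelled groups overlap.

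Splitting each level into converted and unconverted reads showed which reads changed. In labelled libraries ATF4's unconverted level went from a mean of 1174 ± 292 CPM under DO to 296 ± 62.3 CPM under IH (SD, n = 6 each), 3.96-fold lower, and its converted level from 351 ± 50.5 to 253 ± 34.1 CPM, 1.39-fold lower. Both kinds of reads were without overlap between handlings on this TMM scale. Scaled by total exonic counts, ATF4's unconverted reads were still without overlap and 2.69-fold lower, but its converted reads overlapped, at 284 ± 25.4 CPM under DO and 301 ± 34.5 CPM under IH (SD, n = 6 each), so no direction of the converted level is given. PHGDH's unconverted level was 4.65-fold lower (3374 ± 867 against 726 ± 124 CPM, SD, n = 6 each), or 3.15-fold lower with total counts. Its converted level was 2.03-fold lower (279 ± 25.6 against 137 ± 10.0 CPM, SD, n = 6 each), or 1.39-fold lower with total counts. Converted levels include background mismatches, which were not subtracted. In unlabelled libraries the mean converted level was 119 CPM under DO and 32.7 CPM under IH for PHGDH, and 47.7 and 18.3 CPM for ATF4. No direction of PHGDH's s4U-bearing RNA is therefore given.

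PSAT1 rose in both kinds: unconverted reads from 79.4 ± 12.1 to 194 ± 21.8 CPM and converted reads from 16.1 ± 3.45 to 49.0 ± 7.11 CPM (SD, n = 6 each). For DDIT4 the converted level was 117 ± 32.2 CPM under DO and 92.8 ± 15.99 CPM under IH, overlapping, while the unconverted level was 33.4 ± 20.3 and 14.1 ± 2.86 CPM (SD, n = 6 each). The order of the DDIT4 converted means turned with total counts, to 94.7 ± 25.2 CPM under DO and 111 ± 20.7 CPM under IH (SD, n = 6 each). These values are descriptions and were not tested apart from the shares.

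The share of each gene's reads that were intronic, a measure of unspliced RNA, also moved with handling. Of the 1992 genes of the share fit, 60.0% had labelled IH libraries above all labelled DO libraries, 78.4% were higher under IH by the exact permutation test (p under 0.05), and the median share over these genes was 7.81% under DO and 19.5% under IH. The share rose in TRIB3, ATF5, PHGDH, PSAT1, SHMT2 and ASNS (exact two-sided permutation p = 0.00926 for each, the smallest possible), of which TRIB3, ATF5 and ASNS lie outside the 1992 genes. It did not pass in ATF4, DDIT4 or DDIT3.

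PSAT1 had the highest intronic share, at 24.4%, 30.6% and 37.4% in labelled DO and 43.7%, 52.8% and 65.4% in labelled IH libraries. Its groups did not overlap, and without s4U it rose likewise from 16.5% to 24.5% under DO to 48.4% to 52.1% under IH, an order without overlap that 73.2% of the 1992 genes had. PSAT1 intronic reads were 64.9% to 93.5% converted in labelled DO and 86.0% to 96.1% in labelled IH libraries, against at most 25.4% of its exonic reads. PHGDH moved from 2.07%, 2.27% and 4.99% to 18.3%, 20.3% and 27.9%, an increase of 18.4 points without overlap.

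TRIB3 rose by 21.4 points (DO 0 to 15 intronic reads, IH 11 to 49) and ATF5 by 25.5 points (DO 0 to 5, IH 2 to 7 intronic reads). ASNS shared reads rose by 17.5 points, from 1.84%, 3.10% and 11.5% to 18.5%, 20.7% and 32.2%. SHMT2 rose by only 1.80 points, from 0.830% to 1.96% under DO to 1.87% to 4.57% under IH, ranges that overlap. In labelled libraries ATF4 (at most 0.719%) and DDIT4 (0 to 4 intronic reads) had almost no intronic reads. Without s4U the ATF4 share was 0.108% to 0.361% under DO and 0.688% to 1.27% under IH, without overlap as in 73.2% of the 1992 genes, on 1 to 6 and 6 to 21 intronic reads. ATF4 differed by 0.22 points (exact permutation p = 0.0648), and passed without labelled IH replicate 1 of iodoacetamide (0.28, p = 0.0185) or labelled IH replicate 2 of OsO4 and NH3 (0.26, p = 0.0463). By the same exact permutation test DDIT4 differed by -0.75 (p = 0.306) and DDIT3 by -14.2 (p = 0.194).

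**Figure D4:**
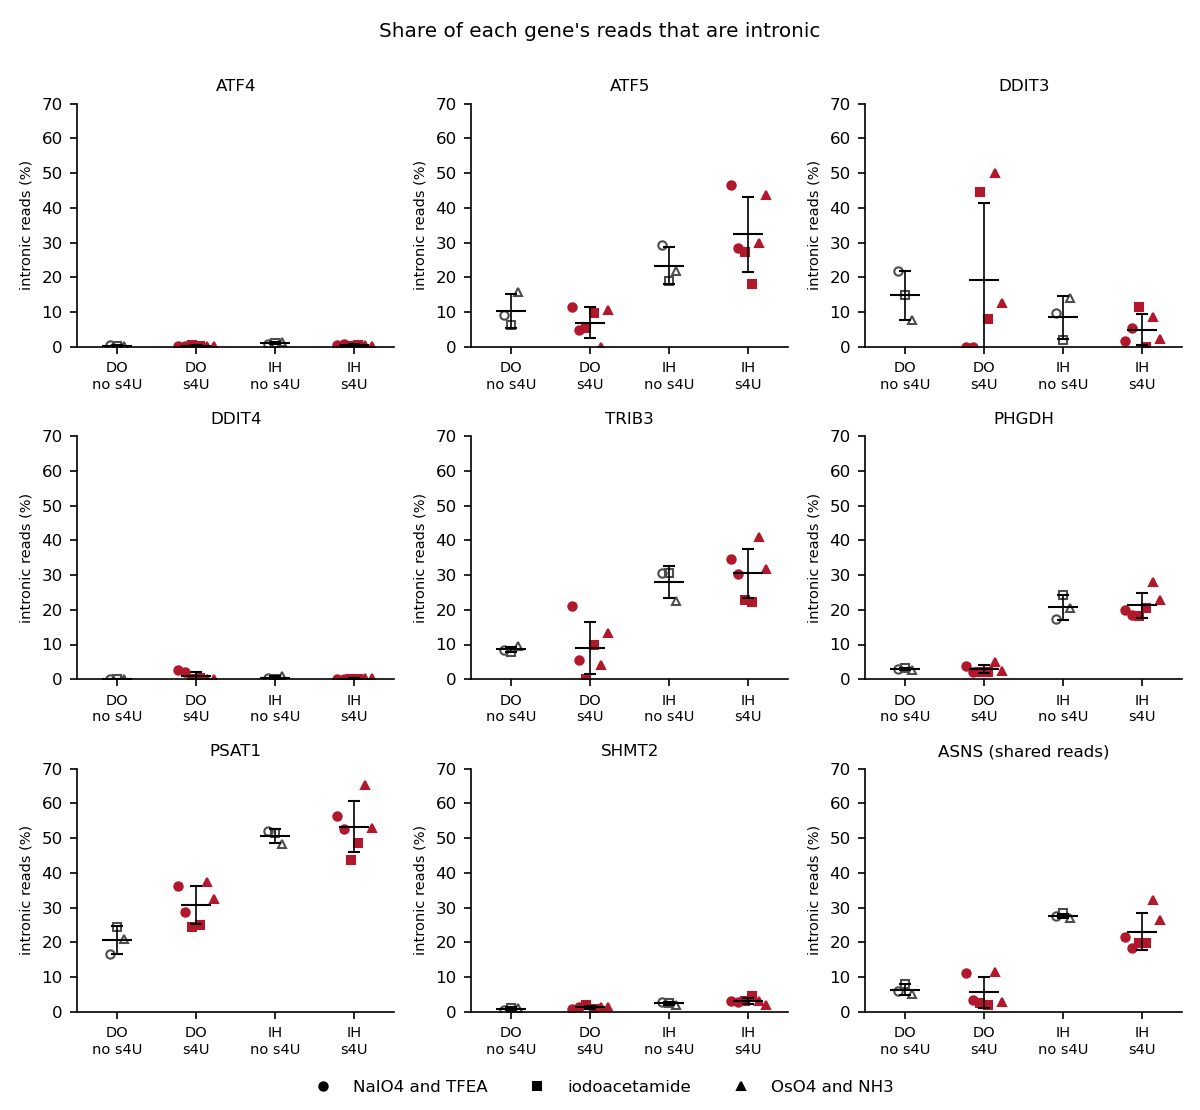
Intronic share of each gene's reads (percent, axes from 0) in 18 libraries, with 1 point per library, its shape giving the chemistry, open without s4U and filled with s4U; bars are means and SD. PSAT1, PHGDH, TRIB3, ATF5 and ASNS lie higher under IH with and without s4U, while ATF4 and DDIT4 stay near 0; the DDIT3 shares rest on at most 6 intronic reads in labelled libraries.

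The authors' deposited table of first-order degradation rate constants, estimated with bakR from the labelled libraries, lists 6 of the 9 genes (ATF4, DDIT4, ASNS, PHGDH, PSAT1 and SHMT2). Its time unit is not given in the sources used here, and its log2 values have the sign of IH over DO in all but 20 of 6071 rows, none of them called and each within 0.086 of 0. In the authors' deposited table, rate constants were called higher under IH for 52.6% of transcripts for NaIO4 plus TFEA, 48.9% for iodoacetamide and 48.1% for OsO4 plus NH3, and lower for 0.679%, 1.44% and 0.442%. The medians of its log2 values were 1.18, 1.14 and 1.19 in that order.

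For ATF4 the authors' deposited table gave 0.104 under DO and 0.361 under IH with NaIO4 and TFEA, 0.132 and 0.319 with iodoacetamide, and 0.107 and 0.312 with OsO4 and NH3. Its deposited adjusted p-values were 9.94e-17, 6.44e-08 and 7.71e-08. ATF4 ranked above 82.1% to 90.9% of transcripts under DO and above 94.8% to 96.1% under IH in the authors' deposited table.

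DDIT4 had rate constants of 1.17 and 1.11 with NaIO4 and TFEA, 1.03 and 1.05 with iodoacetamide, and 0.885 and 1.04 with OsO4 and NH3 in the authors' deposited table. These exceeded more than 99% of transcripts in each case, and none of the 3 differences passed (deposited adjusted p 0.481 to 0.937). The log2 values of DDIT4 were -0.07, 0.03 and 0.24 in the authors' deposited table, each below the median of all transcripts there.

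PHGDH, SHMT2 and ASNS were called higher under IH with all 3 chemistries in the authors' deposited table. ASNS had no exonic reads of its own in the counts analysed here, so its deposited rates are uncertain as well. PHGDH was among the slower transcripts, at 0.0137 to 0.0163 under DO and 0.0412 to 0.0495 under IH. SHMT2 went from 0.0213 to 0.0270 under DO to 0.0829 to 0.0966 under IH, and ASNS from 0.0158 to 0.0317 to 0.0560 to 0.0946, all in the authors' deposited table. PSAT1 was called in the authors' deposited table with OsO4 and NH3 only, at 0.0291 and 0.102 (deposited adjusted p = 0.00964). With NaIO4 and TFEA it was at 0.0490 and 0.0760 (deposited adjusted p = 0.237), and with iodoacetamide at 0.0504 and 0.0524 (deposited adjusted p = 0.864).

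**Figure D5:**
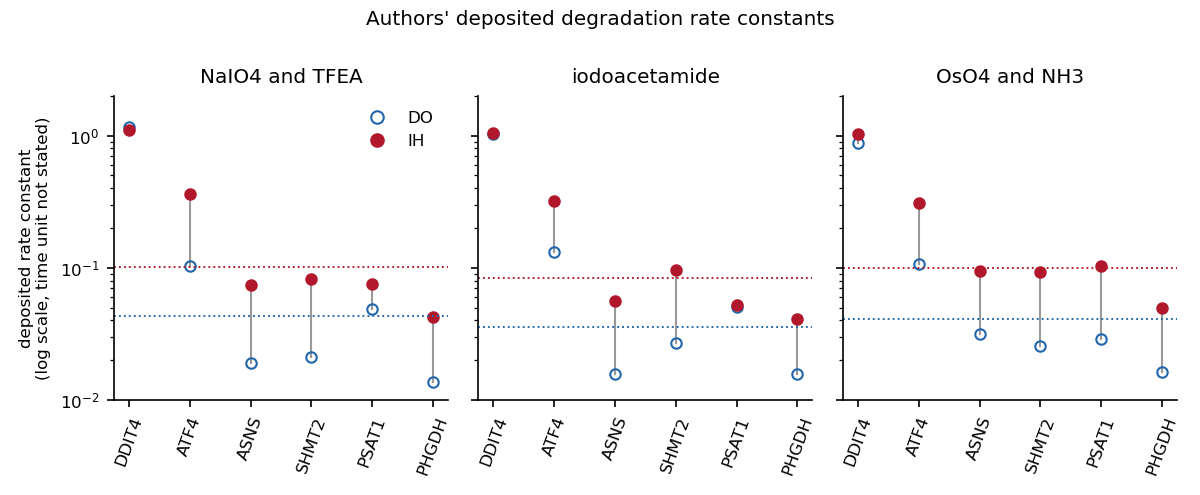
Rate constants of degradation under DO (open blue) and IH (filled red) from the authors' deposited table on a log axis, 1 panel per chemistry, with dotted lines at the medians of all transcripts (blue DO, red IH). DDIT4 lies near 1 under both handlings, ATF4 moves from between 0.104 and 0.132 to between 0.312 and 0.361, and PHGDH lies lowest of the 6 under IH.

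Other genes of the pathway could be named only in that table, because the count table gives identifiers without symbols. Of 20 further stress regulators 7 were listed in the authors' deposited table, with median log2 changes of -0.10, -0.09 and -0.15 (NaIO4 and TFEA, iodoacetamide, OsO4 and NH3), against 1.18, 1.14 and 1.19 over all transcripts. Of those listed 2 of 6, 1 of 5 and 1 of 7 were called higher and 0, 1 and 0 lower, where 52.6%, 48.9% and 48.1% of all transcripts in the authors' deposited table were called higher. With NaIO4 and TFEA under DO that table put PPP1R15A at 0.963, SESN2 at 0.744, STC2 at 0.733 and XBP1 at 0.496. HSPA5 was at 0.0931 and EIF2AK1 at 0.0250 there, against a median of 0.0430 over all transcripts. The part of these DO rates in the low medians was not tested. STC2, a secreted stress-induced glycoprotein, was at -0.51, -0.63 and -0.66, called lower with iodoacetamide only (deposited adjusted p = 0.0298). EIF2AK1, the haem-regulated eIF2 kinase, was called higher with all 3 chemistries (1.33, 2.46 and 1.88) in the authors' deposited table. HSPA5, the endoplasmic reticulum chaperone BiP, was called with NaIO4 and TFEA only (0.82), and PPP1R15A, which directs eIF2 dephosphorylation, was listed at -0.23 and -0.24 and not called.

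Of 11 amino acid transporters 8 were listed in the authors' deposited table, with median log2 changes of 0.43, 0.46 and 0.52, each under the median of all transcripts there. SLC1A4, a neutral amino acid transporter, was the only one called, with NaIO4 and TFEA (1.23) and with OsO4 and NH3 (1.70), and was not listed for iodoacetamide. Of 18 other amino acid and one-carbon enzymes 11 were listed, 5 of 9, 4 of 10 and 3 of 9 called higher and 0 lower, with medians of 1.14, 0.85 and 1.23 in the authors' deposited table. In the authors' deposited table as a whole, 52.6%, 48.9% and 48.1% of transcripts were called higher, with medians of 1.18, 1.14 and 1.19. MTHFD1L, a mitochondrial enzyme of formate production, was at 1.88, 2.81 and 2.56, and GPT2, which makes alanine, at 1.79, 1.67 and 1.85.

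Of 12 tRNA synthetases 10 were listed, 8 of 10, 7 of 10 and 8 of 9 called higher and 0 lower, with medians of 1.63, 1.56 and 1.60 in the authors' deposited table, beside the 52.6%, 48.9% and 48.1% called higher and the medians of 1.18, 1.14 and 1.19 over all its transcripts. MARS1, the methionyl-tRNA synthetase listed there as MARS, was at 2.68, 3.09 and 2.54. The 3 chemistries were separate libraries, but the labels name no separate cultures. Replicate differences of labelled DO libraries correlated between chemistries (0.21, 0.25 and 0.21), so the 3 sets of values are not shown to be independent.

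Over the 18 libraries, the 2 genes outside the set whose log2 CPM followed ATF4 most closely were ENSG00000196642 on chromosome 9 (Pearson's r = 0.989) and ENSG00000125651 on chromosome 19 (r = 0.988). Among the genes of the set, PHGDH followed it at 0.977, SHMT2 at 0.937, ATF5 at 0.826, TRIB3 at 0.595 and DDIT4 at 0.547, whereas DDIT3 was at -0.70 and PSAT1 at -0.96. The libraries fall into DO and IH, so these coefficients largely repeat the handling difference and are given without a p-value.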

How the data were processed

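RNA of HEK293T cells was sequenced with a stranded total-RNA kit, per the labels' protocols. The authors deposited read counts per gene, library, aligner and number of T-to-C mismatches, on GRCh38 per the submitters' processing notes, which also name cutadapt, HISAT2, STAR, HISAT, Picard, HTSeq and DESeq2. The settings codes (D, VL) and versions are not given in the sources used here. HISAT-3N counts under setting D were analysed, because that aligner tolerates mismatches; another aligner can lose converted reads. The authors also deposited a table of rate constants (score, no unit stated), their log2 changes and adjusted p-values from bakR.

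Exonic reads of each gene were summed per library and tested with edgeR 4.0.16 (R 4.3.3; filterByExpr, TMM, quasi-likelihood test, Benjamini-Hochberg) in 1 fit of 12 groups, with contrasts averaged over 3 chemistries. Converted shares were tested with edgeR on converted and unconverted counts with a library term, for genes whose exonic reads numbered 50 or more in all labelled libraries. Thin genes and intronic shares were tested with exact two-sided permutations within chemistry. CPM values use TMM library sizes, and fits were tested on simulated data. Alternatives were DESeq2 1.42.0, other scalings, filters, aligners, read classes and minimums, a replicate block and leaving out each library. No 2 libraries held the same counts. Arithmetic was done in Python 3.11.15.

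The genes, the pathway lists and the 2 genes most like ATF4 (by Pearson's r) were chosen by rules written with earlier results of these data known. From each list, up to 4 genes were picked by the size of the mean deposited log2 change, and only some of those picked are named above. SESN2 and XBP1 were named outside that rule, with their DO rates beside the low medians of the stress regulators. Sequences are from RefSeq (GRCh38.p14). Pathway lists and cell-line markers were not tested in the counts, whose identifiers could not be paired with symbols here.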

Additional observations from a re-analysis of the deposited data

Results flagged for a closer look

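Of 54 groups of 6 labelled libraries checked for a library far from the others, 2 held one, and chance alone flags about 1 group in 20. DDIT3 in labelled IH libraries was at 44.5 CPM in replicate 1 of NaIO4 and TFEA, where the next library was at 28.7 CPM. ATF5 in labelled DO libraries was at 15.6 CPM in replicate 1 of OsO4 and NH3, where the next library was at 21.3 CPM. Both genes have few reads, and the cause was not tested.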

How the results depend on the processing

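Handling changes of ATF4, PHGDH, PSAT1 and SHMT2 kept their direction and call in labelled and unlabelled libraries under every alternative run, of which ATF4 had too few intronic reads for the one on intronic reads alone. Total-count scaling turned DDIT4 to 0.080 with s4U, by construction of a scaling that moved the median of all genes. It moved the s4U difference of SHMT2 under DO to -0.053 and the interactions of PHGDH and SHMT2 to 0.11 and 0.012. It raised the share of called genes that were higher under IH from 57.9% to 69.8% with s4U and from 57.4% to 68.0% without.

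The number of genes called for s4U under DO was 53 with DESeq2, 47 with total counts, 97 without the filter, 10 with intronic reads alone and 90 with HISAT2 D, and 9 to 208 with 1 library left out. Under IH it was 50 without the filter, 47 with intronic reads alone, 8 with STAR, 102 with HISAT2 D and 16 with HISAT2 VL, and 13 to 57 with 1 library left out. The interaction gave 3 with DESeq2, 10 without the filter and 1 with HISAT2 D, and 0 to 17 with 1 library left out. The converted share gave 2886 genes at a minimum of 20 reads, 805 at 100 reads and 2448 with all reads, where the number of genes tested changed too.

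Other sign changes lay among differences that had not been called in the main setting. With intronic reads alone the s4U difference was 0.24 for PSAT1 under DO and 0.28 for SHMT2 under IH, and the interaction was 0.12 for PHGDH and -0.050 for PSAT1. ATF5 under DO was at -0.052 with STAR. SHMT2 under IH was at 0.069 with HISAT2 D and 0.019 with HISAT2 VL, the PHGDH interaction at 0.077 with HISAT2 D and the TRIB3 interaction at -0.020 with HISAT2 VL. The DDIT3 converted share differed by 2.74 points with STAR, 17.2 with 2 mismatches (exact permutation p = 0.0463) and 0.39 after subtracting the unlabelled library. With 1 library left out it ranged from -13.0 to 8.70 points, the interactions of PHGDH from -0.18 to 0.10, TRIB3 from -0.059 to 0.25 and SHMT2 from -0.22 to 0.0016, and the s4U differences under IH of DDIT3 from -0.30 to 0.11 and SHMT2 from -0.10 to 0.032. The cause was not tested.

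Replicate numbers did not pair DO with IH libraries: same-numbered labelled libraries correlated at -4.0e-05, 0.0058 and 0.00095 in their deviations over 12449 genes. With the replicate number within a chemistry as a block the handling call was made for 9684 genes, s4U under DO for 21 and under IH for 20, and the converted share for 1685. That block turned the PHGDH interaction to 0.019 and changed no call for the 8 genes. Numbers did correlate between DO chemistries. With a replicate block shared across chemistries, added after seeing the data, s4U was called for 457 genes under DO and 329 under IH and the interaction for 108, and the PHGDH interaction was 0.017. The handling call was made for 10290 genes and the converted share for 1744, with no call changed for the 8 genes in those. Depth limits DDIT3 and ATF5 most, with as few as 1 and 7 exonic reads in a library.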
